A study of Danio rerio with 5 samples.

Results

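The subject is the set of genomic sites with an H3K27me3 call but no DNA methylation call in zebrafish blastulae. The question is whether a methylation call appeared at them 1 day into development. H3K27me3 is the trimethylation of lysine 27 of histone H3. ChIP-seq recorded it at dome, a stage of the late blastula. MethylCap-seq, which sequences the DNA fragments that a protein binding methylated CpG pulls down, recorded DNA methylation at dome and at 24 hours post fertilisation (24 hpf). All libraries came from whole embryos of mixed AB and Tubingen strains, so cell types cannot be told apart, and a site with both marks may carry them in different cells. Lists of 48 hpf for both marks were used as later observations. Each of the 5 groups had 1 library, so no value has a replicate spread and no test between stages or marks was made.

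The members were the H3K27me3 peaks of dome, on chromosomes 1 to 25, that shared no base with a MethylCap peak of dome. They numbered 22526 of the 31983 dome H3K27me3 peaks (70.4%) and are called starting peaks here. They covered 12.7 Mb, with widths of 137 to 6804 bp and a median of 388 bp. Their median fold enrichment, the authors' value of signal over the local background averaged along the peak, was 3.15. In the whole dome H3K27me3 list the lowest −log10 q was 1.01 and the median 1.59. The MethylCap medians were 5.90 at dome and 5.77 at 24 hpf. Many H3K27me3 calls thus lay close to the lower limit of their list and may be marginal. A starting peak was counted as called at 24 hpf when it shared at least 1 bp with a MethylCap 24 hpf peak.

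H3K27me3 is deposited by Polycomb repressive complex 2, whose catalytic subunit is Ezh2 or Ezh1, and is known for marking silent genes of developmental regulators such as transcription factors. In vertebrates it often covers stretches of CpG-rich DNA that lack DNA methylation. DNA methylation is copied at replication by Dnmt1 and placed anew by enzymes of the Dnmt3 family, and it covers most of the zebrafish genome outside CpG-rich regulatory regions. A broad H3K27me3 peak and a single narrow one can therefore differ in kind, and width and fold were examined separately.

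Most starting peaks had no methylation call at 24 hpf. Of those that did, 68.2% were under 500 bp wide, against 61.3% of all starting peaks. Of the 22526 starting peaks, 3008 (13.4%, Wilson 95% interval 12.9 to 13.8%) met a 24 hpf MethylCap peak. The 24 hpf list was the longer of both MethylCap lists, and reduced to the length of the dome list it met 8.12%. Among all dome H3K27me3 peaks, including those already called methylated at dome, the share was 34.7%, and among the 9457 peaks with a dome call it was 85.6%. The intervals cover counting error only and treat peaks as independent. For comparison, each starting peak was moved along its chromosome by 100 to 300 kb in both directions (10 fixed moves), and the moved positions that also lacked a MethylCap dome peak were counted in the same way. They met a 24 hpf peak in 9.51% of cases (range over the moves 9.30 to 9.82%). For the 9457 peaks with a dome call, moved positions that also had one gave 78.3% (77.0 to 79.4%), below the 85.6% above (84.8 to 86.2%). By bases, 24 hpf peaks covered 46.2% of these peaks, against 29.5% at their moved positions, a ratio of 1.57. The same ratio was 1.26 for starting peaks (4.13% against 3.29%). An excess over moved positions was thus not particular to starting peaks. The ratio of starting peaks to moved positions was 1.40, but it was 0.901 among starting peaks from the higher-scoring 50% of the H3K27me3 list, so the pooled value depended on which peaks were included. Of that part of the list, 25.7% of starting peaks were at least 1 kb wide, against 14.2% of all starting peaks.

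Width separated starting peaks above moved positions from those below. Below 300 bp, 14.2% of 8999 starting peaks (13.5 to 14.9%) were called at 24 hpf, against 6.18% of moved positions (5.77 to 6.74%). From 300 to under 500 bp the share was 16.1% of 4808 (15.1 to 17.1%), against 8.48% (7.68 to 9.10%). From 500 bp to under 1 kb it was 13.6% of 5529 (12.7 to 14.5%), against 11.3% (10.8 to 11.7%). The excess thus became smaller with width although moved positions met more 24 hpf peaks as they became wider. From 1 to under 2 kb the order was the opposite, with 6.37% of 2432 starting peaks (5.47 to 7.41%) against 17.9% (16.7 to 19.3%). Among the 758 starting peaks of 2 kb or more, 6.73% (5.15 to 8.74%) were called, against 26.2% (22.4 to 30.7%). The interval of the starting peaks and the range of the moves did not meet in any of the 5 classes.

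**Figure D1:**
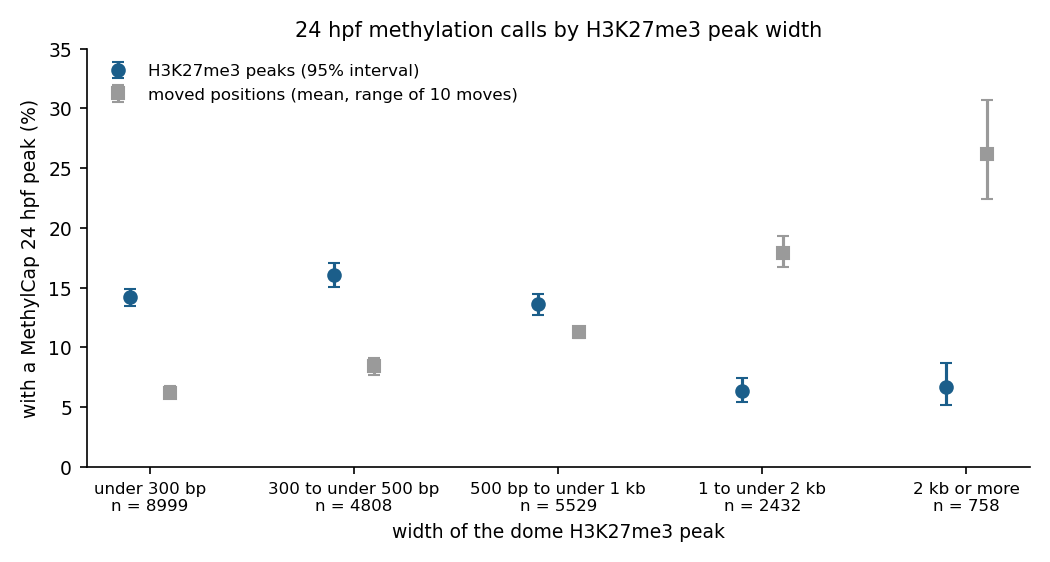
Percent of dome H3K27me3 peaks without a MethylCap dome peak that met a MethylCap 24 hpf peak, by width (circles, Wilson 95% interval), beside the same peaks moved by 100 to 300 kb (squares, mean and range of 10 moves). Starting peaks lie above moved positions below 1 kb (14.2% against 6.18% in the narrowest class) and below them from 1 kb (6.73% against 26.2% in the widest).

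The same order held per base and on every chromosome. In starting peaks under 500 bp, 24 hpf peaks covered 8.63% of the bases, against 3.48% at moved positions. In those of at least 1 kb, which held 42.3% of all bases in starting peaks, they covered 1.02%, against 3.09%. By counts of peaks the ratio to moved positions was 2.13 under 500 bp and 0.329 at 1 kb or more. Across the 25 chromosomes the former ranged from 1.32 on chromosome 25 to 2.63 on chromosome 3, and was above 1 on 25 of 25. The latter ranged from 0.150 on chromosome 25 to 0.729 on chromosome 4, and was above 1 on 0 of 25. Chromosome 25 was also the chromosome with the lowest pooled share (8.96%) and the lowest pooled ratio (0.892).

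Fold enrichment had a weaker and less regular relation to later methylation than width. In quintiles of the starting peaks by fold, the share called at 24 hpf was 11.6% in the lowest quintile (fold 1.37 to 2.92), 17.8% in the second, 15.9% in the third, 13.0% in the fourth and 8.52% in the highest (fold 3.57 to 16.04). The ratios to moved positions were 1.09, 2.13, 1.83, 1.48 and 0.759. The lowest quintile stood below the second, so the share did not follow fold in 1 direction. When quintiles were formed anew among starting peaks at least 1 kb from any MethylCap dome peak, the ratio of the lowest turned below 1, to 0.882, and when formed anew in the higher-scoring 50% of the list, to 0.432. The quintiles differed in width, since 903 of the 4506 peaks in the lowest, 153 of 4506 in the second and 1301 of 4505 in the highest quintile were at least 1 kb wide. From the lowest to the highest quintile, 25.7%, 4.86%, 9.04%, 15.8% and 40.3% had H3K27me3 at 48 hpf. H3K27me3 at 48 hpf was not held fixed in the comparisons by fold, also within classes of width.

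Within a class of width, fold made less difference among narrow starting peaks than among wider ones. Under 500 bp the ratios lay between 1.76 and 2.36 in all 5 quintiles, above 1 throughout, and the highest quintile had 1.81 (11.9% of 2045, 10.6 to 13.4%, against 6.59%). From 500 bp to under 1 kb the ratio was 1.93 in the second quintile (20.3% of 1107, 18.1 to 22.8%) and 0.555 in the highest (6.56% of 1159, 5.27 to 8.13%), a difference far outside both intervals. At 1 kb or more, starting peaks of the highest quintile were called in 4.92% of 1301 cases (3.87 to 6.23%), a ratio of 0.252. The second quintile of this width held 153 peaks, of which 14.4% (9.69 to 20.8%) were called, and its interval met the range of the moves (11.8 to 26.5%). Among the 1% of starting peaks with the highest fold, 24 of 225 (10.7%, 7.27 to 15.4%) were called, which could not be distinguished from moved positions (7.69 to 18.6%). Of these, 76 were under 500 bp wide, and 13 of them (17.1%, 10.3 to 27.1%) were called, against 6.82% of moved positions (3.17 to 11.9%), a ratio of 2.51 with an interval that met the range of the moves.

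**Figure D2:**
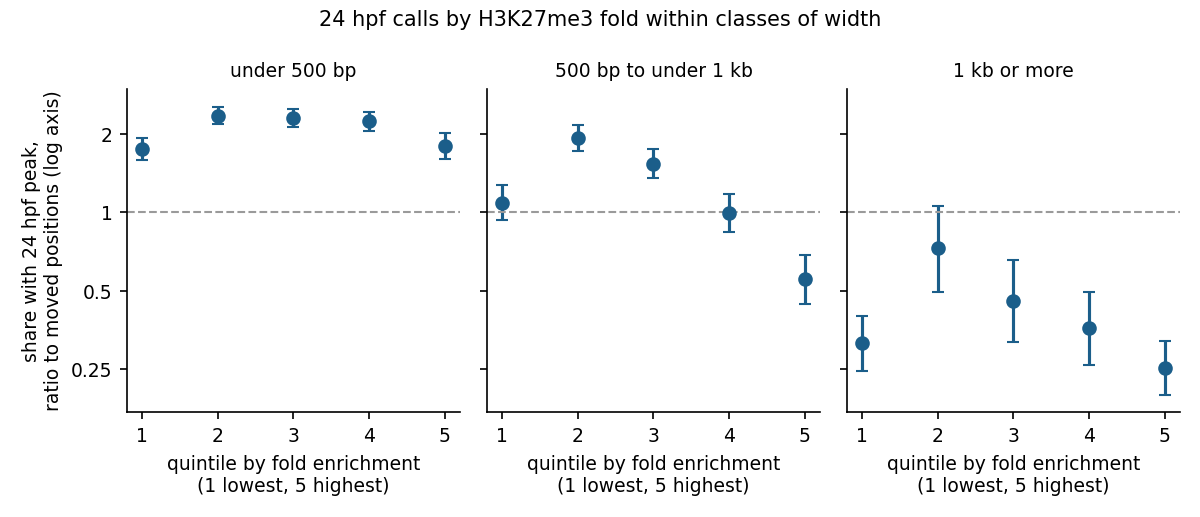
Share of dome H3K27me3 peaks with a MethylCap 24 hpf peak divided by that of moved positions (log axis; bars are the Wilson 95% interval divided by the same mean), by quintile of H3K27me3 fold, in 3 classes of width. Ratios stay between 1.76 and 2.36 under 500 bp, go from 1.93 in the second quintile to 0.555 in the highest from 500 bp to under 1 kb, and are at most 0.732 at 1 kb or more.

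The position of the 24 hpf peak also depended on width. For each called starting peak, the 24 hpf peak that shared most bases with it was described as lying wholly inside, crossing 1 edge or spanning it. A MethylCap 24 hpf peak at a starting peak had a median width of 271 bp, so that it could lie inside a starting peak under 500 bp in few cases. Of the 2050 called starting peaks under 500 bp, 8.29% (7.18 to 9.57%) held the 24 hpf peak inside, against 8.71% at moved positions (6.74 to 10.8%). It crossed an edge in 69.6% (67.6 to 71.6%), fewer than at moved positions (78.5%, 75.3 to 81.4%), and spanned the starting peak in 22.1% (20.4 to 23.9%), more than there (12.8%, 11.7 to 15.6%). The summit of the 24 hpf peak, the position of its highest signal in the authors' list, lay within the starting peak in 55.9% (53.7 to 58.0%), against 43.6% (41.1 to 47.4%). Summits thus fell within narrow starting peaks more often than within moved positions of the same width. From 500 bp to under 1 kb, crossing an edge was in excess. Of 752 called starting peaks, 68.5% (65.1 to 71.7%) had the 24 hpf peak crossing an edge, against 60.5% (57.7 to 62.5%), and 30.6% (27.4 to 34.0%) held it inside, against 39.3% (37.3 to 42.3%). Of the 515 that crossed an edge, 57.3% (53.0 to 61.5%) had their summit within the starting peak, against 46.0% at moved positions (41.5 to 52.0%). By bases, 24 hpf coverage was above the moves in the outermost 250 bp inside (4.81%, moves 3.20 to 3.69%). Within 250 bp outside the edge it was not (4.25%, moves 4.28 to 5.07%).

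Around narrow starting peaks the excess of 24 hpf coverage was local, and coverage farther out was below moved positions. MethylCap 24 hpf peaks covered 8.63% of bases inside, 6.55% within 250 bp outside the edge (moved positions 4.88%, range 4.70 to 5.04%) and 6.07% from 250 to 500 bp, which was below moved positions (7.21%, 6.84 to 7.36%). It was also below the moves from 500 to 1000 bp (7.49%, moves 8.10 to 8.58%) and from 1000 to 2000 bp (8.15%, moves 8.71 to 9.01%). The same held from 2000 to 5000 bp (8.41%, moves 8.95 to 9.14%). From 5000 to 10000 bp the coverage of 8.83% lay within the range of the moves (8.74 to 8.84%). Dome MethylCap peaks, absent inside by the choice of members, covered 1.97% of the first 250 bp outside and 7.50% from 5000 to 10000 bp. Moved positions, chosen in the same way, had 2.14% and 7.25%. Between these distances dome coverage was also below the mean of the moves. It was 4.81% against 5.42% from 250 to 500 bp and 6.44% against 6.75% from 500 to 1000 bp. From 1000 to 2000 bp it was 7.15% against 7.29%, and from 2000 to 5000 bp 7.11% against 7.53%. For dome only the mean of the moves is given, so whether dome coverage lay outside the range of the moves cannot be told.

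Wide starting peaks showed low coverage inside and in their flanks. Of the 206 called peaks of 1 kb or more, 135 (65.5%, 58.8 to 71.7%) held the 24 hpf peak inside, and 71 (34.5%, 28.3 to 41.2%) had it crossing an edge. Moved positions gave 69.9% inside (66.2 to 75.1%) and 30.1% at an edge (24.9 to 33.8%), so an excess at the edge was not detectable among called wide peaks. With the 24 hpf list reduced to the length of the dome list the edge share was 45.9% of 109 (36.8 to 55.2%), against 33.2% (29.3 to 39.1%), and the interval and the range again overlapped. By bases, 24 hpf coverage was 1.42% in the outermost 250 bp inside, 0.934% from 250 to 500 bp and 0.789% from 500 to 1000 bp inside the edge. Moved positions had 3.19% (2.93 to 3.49%), 3.16% (2.71 to 3.74%) and 3.04% (2.84 to 3.39%) at the same distances, so all of these values were below the moves, and the outermost was the closest to them.

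Outside wide starting peaks the low coverage reached beyond the H3K27me3 call. From 1000 to 2000 bp the ratio to moved positions was 0.610, against 0.924 around narrow starting peaks. Within 250 bp outside the edge of wide starting peaks the coverage was 1.38%, against 4.48% at moved positions. From 1000 to 2000 bp it was 5.18%, against 8.50% (8.19 to 8.86%). From 5000 to 10000 bp it was 7.52%, still below the range of the moves (7.91 to 8.31%). Dome MethylCap peaks covered 0.695%, 4.48% and 6.17% at these distances. Moved positions, which also lacked a dome peak inside by choice, had 1.86%, 7.07% and 6.62%. Other dome H3K27me3 peaks occupied 7.96% of the bases from 1000 to 2000 bp, and their part in the low coverage was not tested.

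**Figure D3:**
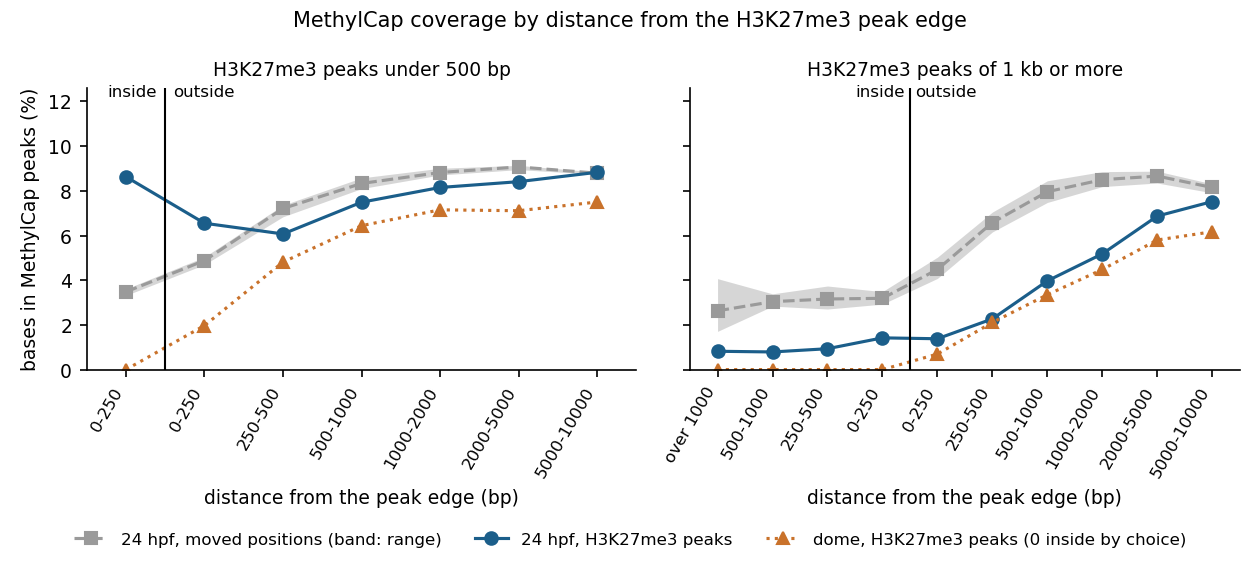
Percent of bases in MethylCap peaks by distance from the edge of dome H3K27me3 peaks under 500 bp and of 1 kb or more, inside and outside, for 24 hpf (circles), dome (triangles, 0 inside by the choice of members) and 24 hpf at moved positions (squares, band for the range of 10 moves). At 24 hpf, coverage is 8.63% inside narrow peaks, against 3.48% at moved positions, and is below moved positions throughout wide ones, with 0.789% at 500 to 1000 bp from the edge.

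Few 24 hpf peaks at starting peaks continued a peak already present next to them at dome. In 281 of the 3008 called starting peaks (9.34%, 8.35 to 10.4%) the 24 hpf peak also overlapped a MethylCap dome peak beyond the starting peak, against 10.6% at moved positions (9.92 to 11.3%). The others had no dome peak under them. Under 500 bp the 24 hpf peak reached a dome peak in 11.0% of 2050 (9.69 to 12.4%), below moved positions (15.3%, 14.1 to 16.4%). In the wider classes the interval and the range overlapped. From 500 bp to under 1 kb the share was 6.38% (4.85 to 8.36%), against 8.49% (6.63 to 9.96%). At 1 kb or more it was 3.88% (1.98 to 7.47%), against 4.24% (3.26 to 5.65%). Pooled over widths, the share was 20.3% when peaks had to share 50% of the shorter one to count as overlapping. Under this setting a starting peak may itself share bases with a dome peak. All 24 hpf peaks without a dome peak numbered 140778, of which 2831 (2.01%, 1.94 to 2.09%) met a starting peak. This share was not compared with moved positions, so it does not show whether such peaks were frequent or rare at starting peaks.

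Nearness to dome methylation was nevertheless related to a later call, at starting peaks and also at moved positions. Under 500 bp, 28.2% of starting peaks less than 250 bp from a MethylCap dome peak were called at 24 hpf, 13.7% of those at 2000 to 5000 bp and 7.58% (6.09 to 9.40%) of those over 10000 bp away. Moved positions at the same distances gave 16.8%, 5.66% and 3.74% (2.94 to 5.01%), and all 7 classes of distance lay above them. The ratio to moved positions was lowest in the nearest class, at 1.68, and between 1.92 and 2.43 in the others. The excess of narrow starting peaks over moved positions was thus not largest next to dome methylation. At 1 kb or more, 26.1% of 88 starting peaks (18.1 to 36.2%) were called within 250 bp of a dome peak, which could not be distinguished from moved positions (23.8 to 36.0%). Over 10000 bp away, 14 of 472 wide starting peaks were called (2.97%, 1.77 to 4.92%), against 13.6% (10.4 to 15.7%). Wide starting peaks also lay farther from dome methylation, at a median of 3708 bp against 2186 bp for their moved positions. Right at the limit of the rule, 39.5% of the 587 starting peaks with a dome peak closer than 100 bp were called. So were 68.1% of the 921 H3K27me3 peaks left out for sharing fewer than 100 bp with dome peaks. Neither share was compared with moved positions, so they do not show whether calls were frequent or rare there.

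**Figure D4:**
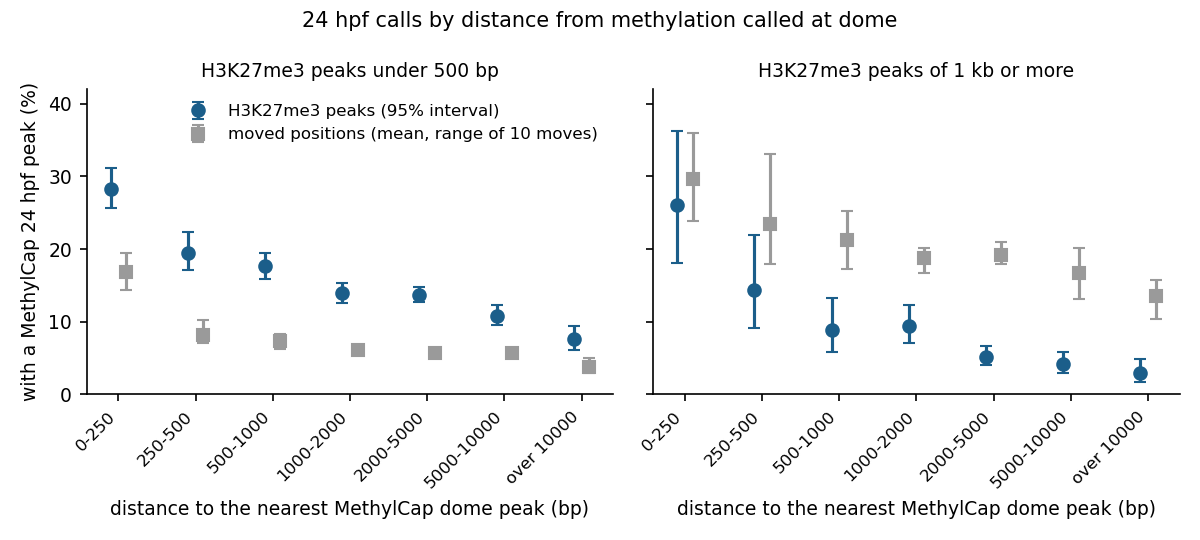
Percent of dome H3K27me3 peaks with a MethylCap 24 hpf peak by distance to the nearest MethylCap dome peak, for widths under 500 bp and of 1 kb or more (circles, Wilson 95% interval), beside moved positions at the same distances (squares, mean and range of 10 moves). Narrow peaks lie above moved positions in every class, whereas wide ones reach 2.97% against 13.6% over 10000 bp away.

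Starting peaks that still had H3K27me3 at 48 hpf had few methylation calls in between. Of the 4311 starting peaks that met a 48 hpf H3K27me3 peak, 154 (3.57%, 3.06 to 4.17%) were called methylated at 24 hpf, against 14.8% of moved positions (13.5 to 16.0%), a ratio of 0.242. Of the 18215 without one, 2854 (15.7%, 15.1 to 16.2%) were called, against 8.39% (8.03 to 8.81%), a ratio of 1.87. Persistence went with width, since 67.0% of starting peaks of at least 1 kb and 6.49% of those under 500 bp had H3K27me3 at 48 hpf. The gap was nevertheless present within each class of width. Under 500 bp the persistent peaks were called in 32 of 896 cases (3.57%, ratio 0.507 with an interval of 0.361 to 0.710) and the others in 15.6% of 12911 (15.0 to 16.3%, ratio 2.25). At 1 kb or more the shares were 3.56% of 2137 (2.85 to 4.43%, ratio 0.173) and 12.3% of 1053 (10.5 to 14.5%, ratio 0.693).

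A difference by width was also present among the peaks without H3K27me3 at 48 hpf, whose ratio was 2.25 when narrow and 0.693 when wide. In these wide peaks the 24 hpf coverage of the outermost 250 bp, 2.51%, was within the range of the moves (2.49 to 3.50%), and from 250 to 500 bp inside it was 1.85%, below them (2.44 to 3.83%). In wide peaks with H3K27me3 at both stages the coverage was 0.878% in the outermost 250 bp and 0.371% from 500 to 1000 bp inside, against 3.33% and 3.04% at moved positions. The 48 hpf H3K27me3 list was much shorter than that of dome (6434 peaks), so a missing 48 hpf peak may be a matter of detection.

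**Figure D5:**
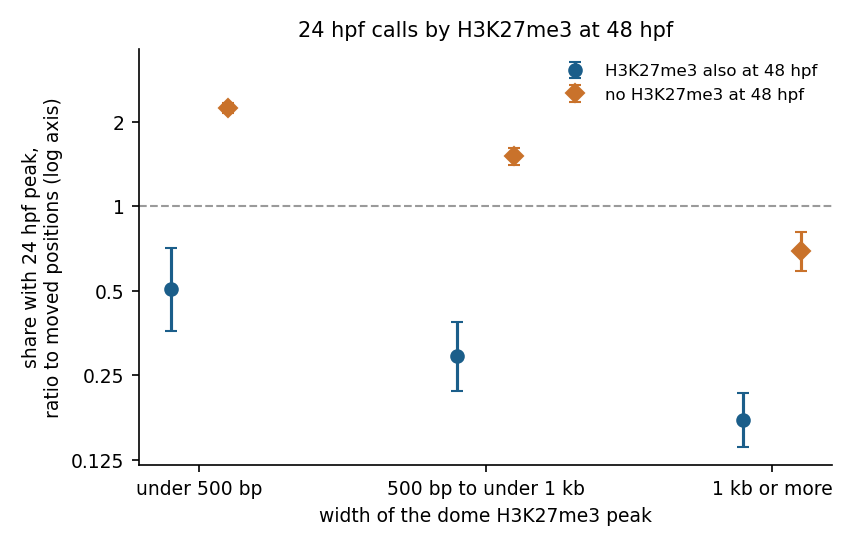
Share of dome H3K27me3 peaks with a MethylCap 24 hpf peak divided by that of moved positions (log axis; bars are the Wilson 95% interval divided by the same mean), for peaks with and without an H3K27me3 peak at 48 hpf, in 3 classes of width. Peaks with H3K27me3 at both stages have the lower ratio in each class, from 0.507 to 0.173, and the others go from 2.25 to 0.693.

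Narrow starting peaks also differed by their neighbours. A starting peak under 500 bp with no other dome H3K27me3 peak joined to it within 5 kb was called in 16.2% of 10660 cases (15.5 to 16.9%), a ratio of 2.32. In groups of 4 or more joined peaks, narrow starting peaks were called in 3.47% of 577 cases (2.25 to 5.29%), a ratio of 0.498. For starting peaks of at least 1 kb the ratio was 0.342 when alone and 0.295 in such groups, with intervals of the shares that overlapped (5.53 to 7.74% and 4.20 to 8.03%). H3K27me3 at 48 hpf was not held fixed in this comparison.

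Pooled over widths, the methylation calls at starting peaks had median strengths within the range of moved positions, but in wide starting peaks the medians were lower. All 24 hpf peaks at starting peaks had a median fold of 3.89 and a median −log10 q of 5.29, within the ranges at moved positions (3.82 to 3.98 and 5.11 to 5.43). At 1 kb or more the medians were 3.76 and 4.85, below moved positions (3.88 to 4.09 and 5.11 to 5.61). At 2 kb or more, with 51 called peaks, they were 3.61 and 4.47, lower than in any of the 10 moves (means 4.07 and 5.32). No interval was computed for these medians. The range of the moves does not measure the sampling error of 206 or 51 peaks. A minority of the calls recurred at 48 hpf. The MethylCap list of 48 hpf was shorter (192673 peaks, against 330176 at 24 hpf), so a call missing at 48 hpf may be a matter of detection. In the independent MethylCap library of 48 hpf, a peak overlapped the 24 hpf peak of 1099 of the 3008 called starting peaks (36.5%, 34.8 to 38.3%), against 29.0% at moved positions (27.4 to 31.5%). Among the 2050 under 500 bp the share was 35.6% (33.6 to 37.7%), against 31.8% (28.4 to 34.3%), and the interval met the range. Those of 500 bp to under 1 kb had 38.4%, against 28.2% (25.6 to 32.0%), and there the interval and the range did not meet. At wide starting peaks, where 24 hpf calls were rare, 80 of 206 (38.8%, 32.4 to 45.6%) recurred, against 24.5% (20.7 to 25.8%). Of all starting peaks, 1015 had MethylCap at 24 and 48 hpf, 1993 at 24 hpf alone, 667 at 48 hpf alone and 18851 at neither.

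Individual sites illustrate these classes, with coordinates on danRer7 and no gene assigned. Among called starting peaks whose 24 hpf peak met no dome MethylCap peak, the one with the highest-scoring 24 hpf peak was narrow. It lay on chromosome 15 from 12668185 to 12668353 (169 bp, H3K27me3 fold 4.01) and was spanned by a 24 hpf peak from 12668045 to 12668429 (fold 12.55, −log10 q 34.6), 22584 bp from the nearest dome MethylCap peak. It met peaks of both marks at 48 hpf. A narrow starting peak on chromosome 3 from 57977627 to 57977773 (147 bp) was spanned in the same way by a 442 bp peak of fold 7.28, and at 48 hpf the site had a MethylCap peak and no H3K27me3 peak.

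The highest H3K27me3 folds were found with and without a later methylation call. On chromosome 5 from 64236657 to 64237214 the H3K27me3 fold was 14.37, and a 463 bp 24 hpf peak (fold 5.46) began 117 bp inside it and crossed its end by 22 bp. On chromosome 18 from 12608537 to 12608903 the fold was 16.04, the highest of all starting peaks, and neither 24 nor 48 hpf had a MethylCap peak. The same was true on chromosome 15 from 46707838 to 46708229 (fold 13.32). All 3 sites had H3K27me3 at 48 hpf.

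Wide sites with a call inside were exceptions among wide peaks. The widest lay on chromosome 8 from 45712441 to 45718446 (6006 bp) and held a 382 bp 24 hpf peak (fold 3.01, −log10 q 3.05) 3268 bp from its start and 2356 bp from its end, and the site had no MethylCap peak at 48 hpf. On chromosome 7 from 54470005 to 54474208 a 24 hpf peak of 946 bp (fold 3.58, −log10 q 7.78) lay 2290 bp from the start, and the site was called in MethylCap at 48 hpf as well. Both kept H3K27me3 at 48 hpf. The widest starting peak of all, 6804 bp on chromosome 15 from 34925915 to 34932718 (fold 2.01), had H3K27me3 at 48 hpf and no MethylCap peak at any stage. The same held for a starting peak of 5847 bp on chromosome 24 from 12452430 to 12458276, the next widest among those without a 24 hpf peak.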

How the data were processed

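Each library was deposited as 1 list of peaks, without read counts, so depth is unknown and a region without a peak may lie below detection. The submitters' processing notes name danRer7 as the build and list MACS2, SAMtools, Bowtie2 2.2.1 and CASAVA 1.8.2; parameters, a control library and any pooling are not given in the sources used here. H3K27me3 lists have the layout of broad peaks, MethylCap lists that of narrow peaks. The deposited fold enrichment (a ratio to local background), the −log10 p and q values and the score are the authors' and served to describe or rank peaks within a list; the summit is the last column of the deposited MethylCap lists. Peaks on other sequences (at most 7 per list) were left out. A longer list meets more sites, and MethylCap held 220564 peaks at dome, 330176 at 24 hpf and 192673 at 48 hpf.

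Overlaps, moved positions (kept within the chromosome, whose end was the highest peak end in any list) and Wilson intervals were computed with Python 3.11.15, NumPy 2.4.6 and pandas 2.3.3, and the overlap functions were tested on simulated data. Unassembled stretches were part of the space moved over. No danRer7 genome or gene annotation was used, so no gene or sequence is given. Regions named are a selection from the 5 highest or widest by 24 hpf score, width and fold, with and without a 24 hpf peak. The ranking by 24 hpf score used only 24 hpf peaks that met no dome MethylCap peak. The members and classes were chosen with earlier results of these data known. The 5 kb grouping of peaks, the division by H3K27me3 at 48 hpf, the edge and distance profiles and the upper 1% by fold were added to the planned comparisons. Settings tried are given in the closing section.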

Additional observations from a re-analysis of the deposited data

How the results depend on the processing

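For 8 results under 9 other settings, 46 of 72 values stayed within the counting interval of the value reported. Moves of 10 to 50 kb and leaving out moved positions that met H3K27me3 changed only the moved positions. These settings could not alter the shares called at 24 hpf, crossing an edge or reaching a dome peak, and those unchanged values are among the 46. The ratios under 500 bp (1.87 to 2.57), at 1 kb or more (0.283 to 0.381) and in the highest quintile by fold (0.592 to 0.877) stayed on their side of 1 in all 9. Quintiles were formed anew under each setting. When shared peaks had to cover 50% of the shorter one, the share called at 24 hpf was 11.3%, the ratio 1.56 (2.57 under 500 bp, 0.381 at 1 kb or more, 1.22 in the lowest and 0.877 in the highest quintile), and 20.3% of 24 hpf peaks reached a dome peak. With the 24 hpf list reduced to the length of the dome list, the share was 8.12% with the ratio again 1.40, the ratio at 1 kb or more 0.283, 45.9% of 24 hpf peaks in wide starting peaks crossed an edge, and 13.2% reached a dome peak. At least 1 kb from dome MethylCap peaks, the share was 11.0% and the ratio 1.31 (2.23 under 500 bp, 0.882 in the lowest and 0.651 in the highest quintile). Under this setting 0 of 1890 24 hpf peaks reached a dome peak, which only a 24 hpf peak longer than 1 kb could do. In the higher-scoring 50% of the H3K27me3 list, the share was 9.69% and the ratio 0.901 (1.87 under 500 bp, 0.286 at 1 kb or more, 0.432 in the lowest and 0.592 in the highest quintile). With peaks joined within 1 kb, the share was 13.9% and the lowest quintile had 1.23, and with moves of 10 to 50 kb the lowest quintile had 1.19. The cause of the values that turned (0.901, 0.882 and 0.432) was not tested. Leaving out chromosome 4, moved positions that met H3K27me3, or positions with no dome peak of either mark within 10 kb left all 8 results within their intervals. The choice of moved positions could alter only the ratios. No paired analysis was possible because each group had 1 library. For the same reason no library could be left out.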

Other observations

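The MethylCap list of 48 hpf, as the later list in place of 24 hpf, met 1682 of the 22526 starting peaks (7.47%, Wilson 95% interval 7.13 to 7.82%), against 3.97% of moved positions (range 3.90 to 4.07%). Under 500 bp the ratio was 2.59 (7.74% against 2.99%), and at 1 kb or more it was 0.679 (5.30%, 4.57 to 6.13%, against 7.80%, 7.45 to 8.23%). The 24 and 48 hpf libraries were thus on the same side of moved positions in both classes, and the value for wide peaks was nearer to 1 at 48 hpf.

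With the MethylCap stages exchanged, 1366 of the 20884 dome H3K27me3 peaks without a 24 hpf peak had a dome peak (6.54%, 6.21 to 6.88%), against 4.02% of moved positions without a 24 hpf peak (3.80 to 4.23%). Under 500 bp the ratio was 1.76 (6.09% against 3.47%). At 1 kb or more it was 1.05 (6.40%, 5.60 to 7.30%, against 6.09%, 5.46 to 6.87%), where the interval and the range of the moves overlapped. For narrow peaks, methylation called at 1 of the 2 stages was thus above moved positions in both orders of the stages. For wide peaks it was below them for calls at 24 hpf without a dome call. In the exchanged order it could not be distinguished from them by counts of peaks. By bases, dome peaks covered 1.34% of these wide peaks, against a mean of 0.972% at moved positions, a ratio of 1.38. No range over the moves is given for this ratio.

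On chromosome 4 from 30 Mb to the end, 101 of 723 starting peaks (14.0%, 11.6 to 16.7%) had a 24 hpf peak, against 6.74% of moved positions (5.23 to 8.07%), a ratio of 2.07. Below 25 Mb the share was 13.8% of 407 (10.7 to 17.4%), against 10.1% (7.54 to 11.9%), a ratio of 1.37 with an interval that met the range of the moves.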
